A study of Mus musculus with 12 samples.

Results

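Autophagy and mitophagy are described here from 33 genes, followed across 12 mouse hearts that differed in Cd163 genotype and in pressure load. The genes span the path from the kinase that starts an autophagosome to the lysosome that digests it. They were found by matching the Ensembl identifiers of the deposited table to mouse gene symbols, and the 33 rows are part of 55357 rows in all. All 33 genes matched and all passed the low-count filter. Messenger RNA of heart tissue was sequenced in 4 groups with 3 libraries (n = 3) each. All animals were male, on a C57BL/6J background, and 8 weeks old at surgery. The wild-type (WT) groups had either sham surgery or transverse aortic constriction (TAC), in which a ligature around the aorta raises the pressure the left ventricle must pump against. The knockout (KO) groups carried Cd163-/-, loss of the macrophage receptor for haemoglobin bound to haptoglobin, and had the same 2 operations. The labels list separate samples without naming the animal behind each, so the p-values rest on the spread among the samples as listed. How long after surgery the hearts were taken is not given in the sources used.

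Autophagy wraps cytoplasm in a double membrane and delivers it to lysosomes, and mitophagy is the same route used on mitochondria. A kinase complex and a lipid kinase complex start the membrane, a ubiquitin-like conjugation system fixes ATG8 proteins on it, and receptors tie cargo to those ATG8 proteins. Heart muscle is dense in mitochondria and its cells rarely divide, so it depends on this turnover for organelle quality, and pressure overload is known to alter it. Transcript levels do not measure flux through the pathway.

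Libraries held 14150109 to 22602225 counts. Cd163, which checks the genotype labels, had 255 to 592 counts in the WT libraries and 46 to 112 in the KO libraries. Ventricular muscle markers were abundant in all libraries, while of the skeletal muscle and thymus markers Myh4 had 0 counts in all 12 and the thymocyte genes Rag1 and Dntt reached at most 1.64 CPM (their libraries are given with the other markers). KO sham replicate 1 and WT TAC replicate 1 stood apart from their groups. For 30 of the 33 genes KO sham replicate 1 lay nearer to the mean of the KO TAC libraries than to the mean of its own group's other libraries, against 80.2% of all tested genes. WT TAC replicate 1 lay nearer to the KO TAC mean for 24 of the 33 genes, against 55.3% of all tested genes, and was the lowest of the 3 WT TAC libraries for 25 of them. Results are therefore given with all 12 libraries and without these 2, which are called the 2 outlying libraries. Both were singled out by their nearness to the KO TAC libraries, partly in these 33 genes. Leaving them out tends to widen differences from the KO TAC group, so calls gained in that fit are not independent support.

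The broadest difference was between the genotypes after TAC. With all 12 libraries, 10 of the 33 genes (30.3%) were lower in KO than in WT TAC hearts at an adjusted p under 0.05 in edgeR, and 0 were higher. Of the 15804 genes tested, 20.4% passed in this comparison, 11.7% as lower and 8.63% as higher. The median log2 fold change of the 33 genes was -0.48, beside -0.02 over all tested genes, and 26 of the 33 values were negative. The 10 genes were the 5 ATG8 genes, the conjugation enzyme Atg10, the membrane-binding Wipi1, the mitophagy genes Pink1 and Bnip3, and the lysosomal membrane gene Lamp1. Their log2 fold changes ran from -1.50 to -0.64 and their adjusted p-values from 0.0221 to 0.0440. Without the 2 outlying libraries, 21 genes were lower and 1 was higher, and the 21 included all 10. In that fit 53.8% of 16007 tested genes passed, 27.7% as lower and 26.1% as higher, and the median of the 33 was -0.63 beside 0.00 over all genes.

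**Figure D1:**
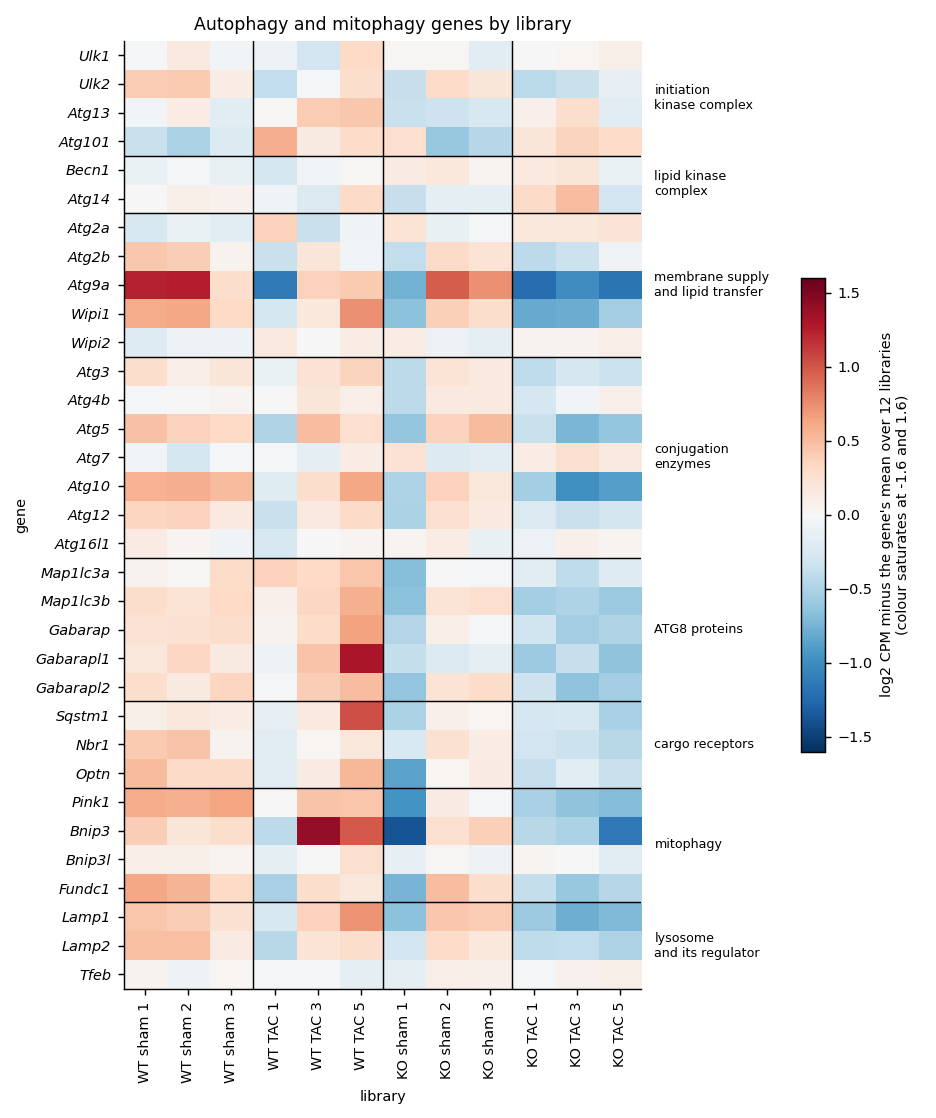
Each row is 1 of the 33 genes, grouped by role, and each column 1 of the 12 libraries, grouped by genotype and surgery. Colour gives log2 CPM minus the gene's mean over the 12 libraries. The 3 KO TAC columns and KO sham 1 are mostly blue for the ATG8 proteins, the cargo receptors, Pink1, Fundc1 and the lysosomal membrane genes, while Becn1, Atg7, Atg101 and Wipi2 are near white or light red in most of them.

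The calls depended on single libraries. Leaving out WT TAC replicate 3, WT TAC replicate 5, or any 1 of the 3 KO TAC libraries brought the count of 10 to 0, with 10 to 13 of the 33 genes (12 and 10 without the WT TAC libraries, 13, 12 and 11 without the KO TAC libraries) lower at an unadjusted p under 0.05. Of all genes, 16.2% and 17.1% were lower at that threshold without the WT TAC libraries, and 17.4%, 16.6% and 17.9% without the KO TAC libraries. After adjustment 0.258% and 0.555% of all genes were called lower without the WT TAC libraries, and 0.129%, 0.0678% and 1.03% without KO TAC replicates 1, 3 and 5. The count was 4, 5 and 6 on omitting WT sham replicates 1, 2 and 3 in turn, beside 6.09%, 6.67% and 7.33% of all genes. Omitting WT TAC replicate 1 gave 15 (18.0% of all genes), and omitting KO sham replicate 1 gave 18 (22.1%). In each of these fits the members' median stayed negative, between -0.63 and -0.30. DESeq2 called 12 of the genes lower, the same 10 with Sqstm1 and Atg3, where 14.9% of all genes were called lower. Removing the genes of the mitochondrial genome before scaling left the same 10.

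**Figure D2:**
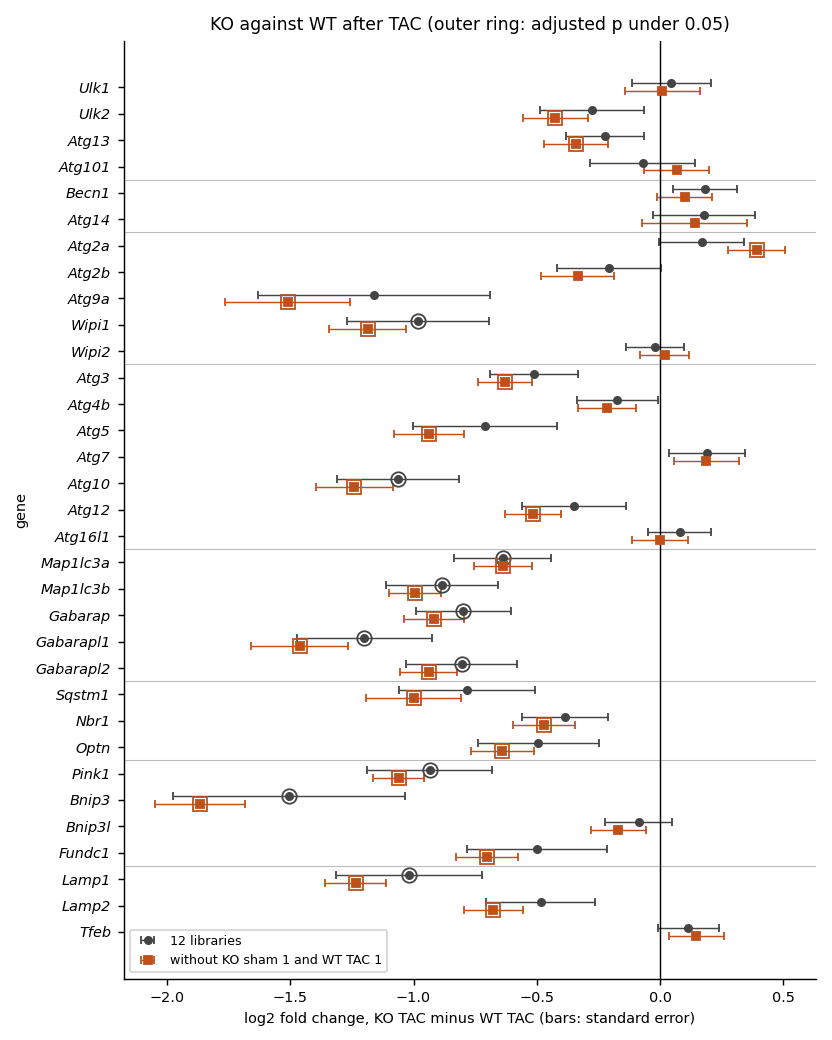
The horizontal axis gives the log2 fold change of KO TAC over WT TAC hearts, with bars for the standard error, and each row is 1 of the 33 genes in the order of their roles. Grey circles come from all 12 libraries and orange squares from the fit without KO sham 1 and WT TAC 1, and an outer ring marks an adjusted p under 0.05. The 10 ringed circles all lie left of 0, and Atg2a carries the 1 ringed square to the right of it.

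Of the 33 genes, 28 had a promoter window from 250 bases before to 50 bases after the start in RefSeq (GRCm38.p6), 300 bases in all. Stretches of 250 bases before the start are printed for 4 of the 10 lower genes, because these genes were lower together and carry 4, 1, 0 and 0 copies of the motif marked in them. Capitals mark CACGTG, the E-box core that the factor TFEB and its relatives bind, and all are read 5′ to 3′ on the gene's strand. Lamp1 lies on the plus strand at chr8:13158911-13159160, Bnip3 on the minus strand at chr7:138909507-138909756, Gabarapl1 on the plus strand at chr6:129532942-129533191 and Map1lc3b on the plus strand at chr8:121590188-121590437.
Lamp1: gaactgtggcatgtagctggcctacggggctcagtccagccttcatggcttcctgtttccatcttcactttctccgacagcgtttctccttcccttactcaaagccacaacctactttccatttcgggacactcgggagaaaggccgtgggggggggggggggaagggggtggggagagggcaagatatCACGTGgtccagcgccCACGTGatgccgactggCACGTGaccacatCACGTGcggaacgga
Bnip3: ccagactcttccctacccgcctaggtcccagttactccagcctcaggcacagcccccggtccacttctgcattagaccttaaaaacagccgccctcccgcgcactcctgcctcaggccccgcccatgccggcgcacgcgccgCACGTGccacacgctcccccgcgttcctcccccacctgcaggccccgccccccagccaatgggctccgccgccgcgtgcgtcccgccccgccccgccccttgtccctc
Gabarapl1: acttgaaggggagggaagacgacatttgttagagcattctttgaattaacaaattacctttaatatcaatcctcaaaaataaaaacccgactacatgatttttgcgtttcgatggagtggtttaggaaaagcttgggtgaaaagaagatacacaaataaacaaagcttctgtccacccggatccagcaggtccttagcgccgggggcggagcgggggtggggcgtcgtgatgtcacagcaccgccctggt
Map1lc3b: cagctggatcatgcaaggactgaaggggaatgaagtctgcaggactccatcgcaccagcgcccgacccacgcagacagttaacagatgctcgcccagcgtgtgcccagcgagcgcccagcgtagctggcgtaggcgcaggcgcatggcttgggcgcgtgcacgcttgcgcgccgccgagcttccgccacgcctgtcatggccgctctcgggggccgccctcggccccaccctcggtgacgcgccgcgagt
The Lamp1 promoter held 4 such cores, which begin 61, 45, 28 and 15 bases before the start, and the Bnip3 promoter held 1, which begins 108 bases before it. The Gabarapl1 and Map1lc3b stretches held 0. Over both strands, CACGTG was found for 6 of the 28 genes (21.4%), Atg14, Atg3, Atg5, Atg7, Bnip3 and Lamp1. It was found in 7.15% of 32851 RefSeq windows of the same length. Among the 10 lower genes 9 had a window, and 2 of the 9 held the core. ACGTG, the core of the hypoxia response element, which overlaps CACGTG, was found in 12 of the 28 (42.9%) and in 19.6% of all windows. GTAAACA, a FoxO motif, was found in 0 of the 28 and in 3.65% of all windows. The shares of the 28 count genes and the other shares count windows, which were not matched for base composition. These matches describe letters in a window and not binding.

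ATG8 proteins are the ubiquitin-like tags that are fixed to the growing membrane and that cargo receptors grip, and the LC3 and GABARAP branches both belong to them. All 5 measured ATG8 genes were lower in KO than in WT TAC hearts. Map1lc3a, of the LC3 branch, stood at 302, 294 and 319.5 CPM (counts scaled to a common library total with TMM factors) in WT TAC replicates 1, 3 and 5 and at 207, 177 and 204 in KO TAC replicates 1, 3 and 5. Its WT sham libraries were at 244, 237 and 287 and its KO sham libraries 1 to 3 at 147, 234 and 233 CPM. The KO TAC values lay below every WT library and below KO sham replicates 2 and 3, with KO sham replicate 1 lower still, and the log2 fold change after TAC was -0.64 ± 0.20 (SE), adjusted p = 0.0427 in edgeR.

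Map1lc3b, the LC3 gene whose lipidated protein is the usual marker of autophagosomes, was at 125, 149 and 176 CPM in WT TAC and 81.4, 83.7 and 78 CPM in KO TAC libraries, against 144, 137 and 147 in WT sham and 75.1, 138 and 142 in KO sham libraries. The 3 KO TAC libraries and KO sham replicate 1 lay between 75.1 and 83.7 CPM, and the other 8 libraries between 125 and 176. The difference after TAC was -0.88 ± 0.23 on the log2 scale (1.85-fold lower, edgeR adjusted p = 0.0268).

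In the GABARAP branch, which acts later in autophagosome closure and fusion, Gabarap was at 143, 168 and 213 CPM in WT TAC and 110.0, 92.9 and 97.9 in KO TAC libraries (-0.80 ± 0.19, edgeR adjusted p = 0.0239). Gabarapl1 was at 56.3, 81.3 and 147 CPM in WT TAC and 39.7, 46.2 and 38.2 in KO TAC libraries (-1.20 ± 0.27, adjusted p = 0.0221). WT TAC replicate 5 was the highest of all 12 libraries for Gabarapl1, and its omission moved the log2 fold change to -0.74, the smallest among the 12 single omissions. Gabarapl2 was at 38, 50.8 and 54.7 CPM in WT TAC and 30.8, 24.7 and 26.6 in KO TAC libraries (-0.81 ± 0.23, adjusted p = 0.0333). The sham levels of the 3 genes, in replicates 1 to 3, were 161, 162 and 166 CPM in WT and 98.8, 147 and 134 in KO for Gabarap, and 46.9, 42.8 and 49.2 in WT and 25, 45 and 47.4 in KO for Gabarapl2. For Gabarapl1 they were 67.6, 75 and 65.7 in WT and 45.8, 50.7 and 53.5 in KO, so that all 6 KO libraries lay below all 6 WT libraries. Gabarapl1 shares 28.3% of its exon bases with 1700101I11Rik on the opposite strand, and whether counting used strand is not given in the sources used, so reads of these partners cannot be told apart.

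**Figure D3:**
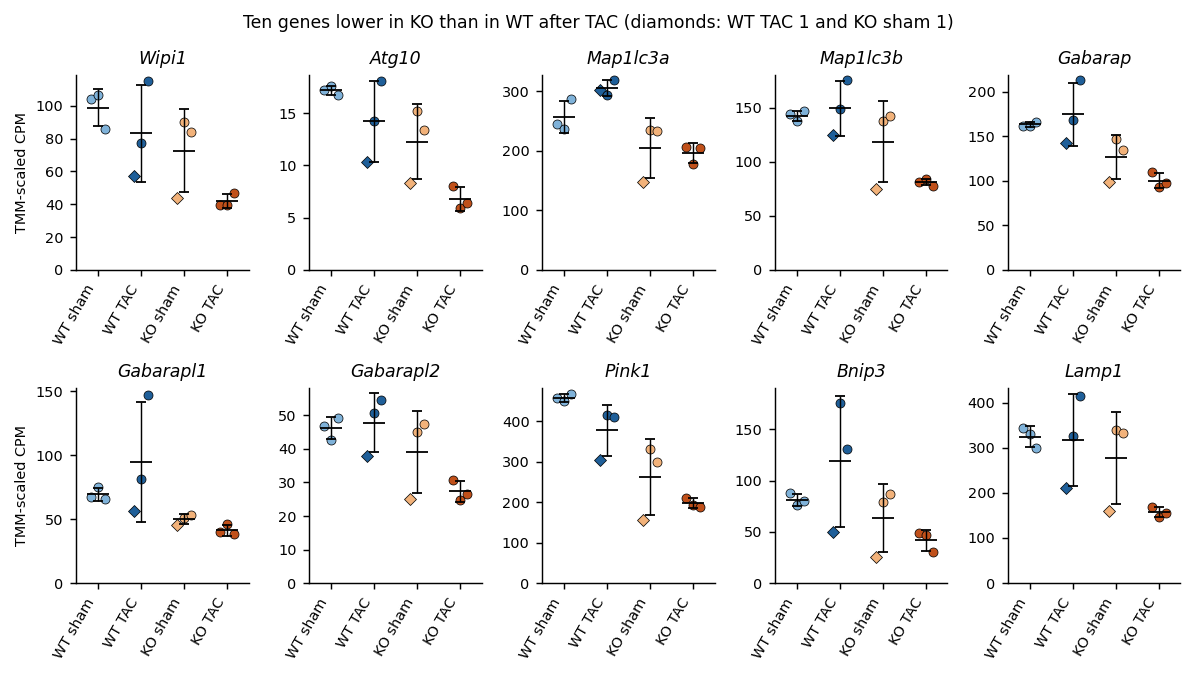
Each panel shows 1 of the 10 genes lower in KO than in WT TAC hearts, with TMM-scaled CPM from 0 on the vertical axis, 3 libraries per group as points, the group mean as a horizontal line and the SD as a bar. Diamonds mark WT TAC 1 and KO sham 1. In each panel the KO TAC points lie below the WT TAC points. The KO sham 1 diamond lies beside or below the KO TAC points, except for Atg10, where it lies just above them.

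The conjugation enzymes that load ATG8 and ATG12 were less uniform, with 1 of 7 lower after TAC in KO hearts. Atg10, the E2-like enzyme that passes ATG12 to ATG5, was at 10.3, 14.2 and 18.1 CPM in WT TAC and 8.07, 5.95 and 6.36 in KO TAC libraries, beside 17.3, 17.6 and 16.8 in WT sham and 8.33, 15.2 and 13.4 in KO sham libraries. The KO TAC libraries were the 3 lowest of the 12, KO sham replicate 1 came next, and the difference after TAC was -1.06 ± 0.25 (edgeR adjusted p = 0.0229). Atg3, the E2-like enzyme for ATG8, was at 17.9, 22.6 and 24.7 CPM in WT TAC and 14.5, 16 and 15.2 in KO TAC libraries, which do not overlap, yet it did not pass (-0.51 ± 0.18, adjusted p = 0.0591). Atg5, the acceptor of ATG12, was at 9.24, 18.2 and 15.5 CPM in WT TAC and 10.1, 7.75 and 8.39 in KO TAC libraries, which overlap through WT TAC replicate 1 (-0.71 ± 0.29, adjusted p = 0.0916). For Atg12 the difference was -0.35 ± 0.21, with an adjusted p of 0.225. Without the 2 outlying libraries Atg3, Atg5, Atg10 and Atg12 were all lower, with log2 fold changes of -0.63, -0.94, -1.24 and -0.52. The protease Atg4b (-0.17 ± 0.16), the E1-like enzyme Atg7 (0.19 ± 0.15) and the scaffold Atg16l1 (0.08 ± 0.13) passed in neither fit, and their adjusted p-values with 12 libraries were 0.441, 0.36 and 0.66.

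The genes that start the autophagosome did not pass with 12 libraries. In the initiation complex, Ulk1, its kinase, was at 54.5, 47.1 and 72.5 CPM in WT TAC and 58.3, 59.2 and 62.3 in KO TAC libraries, and the KO TAC values fell within the WT TAC range. The sister kinase Ulk2 was at 46.3, 59.6 and 73.7 CPM in WT TAC and 45, 47.5 and 55.7 in KO TAC libraries, which overlap. The log2 fold changes were 0.05 ± 0.16 for Ulk1, -0.28 ± 0.21 for Ulk2, -0.22 ± 0.16 for the adaptor Atg13 and -0.07 ± 0.21 for its partner Atg101, with edgeR adjusted p-values from 0.302 to 0.848. Without the 2 libraries Ulk2 (-0.42, adjusted p = 0.0149) and Atg13 (-0.34, adjusted p = 0.0397) were lower. Becn1 and Atg14, subunits of the lipid kinase complex that marks the new membrane, differed by 0.18 ± 0.13 and 0.18 ± 0.21, and neither passed in either fit (adjusted p = 0.306 and 0.535 with 12 libraries). Becn1 shares 43.9% of its exon bases with Cntd1 on the opposite strand.

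Of the 5 genes that supply and extend the membrane, Wipi1 was lower after TAC in KO hearts. WIPI proteins read the lipid mark left by the Becn1 complex. Wipi1 was at 57.1, 77.6 and 115 CPM in WT TAC and 39.7, 39.7 and 47 in KO TAC libraries, beside 104, 106 and 86.1 in WT sham and 44, 89.9 and 84.2 in KO sham libraries. The 3 KO TAC libraries and KO sham replicate 1 lay between 39.7 and 47.0 CPM, below the other 8, and the difference after TAC was -0.98 ± 0.29 (edgeR adjusted p = 0.0371). Its relative Wipi2 did not share this, at 43.5, 38.9 and 42.4 CPM in WT TAC and 40.5, 40.4 and 42.1 in KO TAC libraries (-0.02 ± 0.12, adjusted p = 0.909). Atg9a, the membrane protein of the vesicles that seed the autophagosome, varied widely among the WT hearts. It was at 32, 32.7 and 16.7 CPM in WT sham and 6.24, 17.7 and 18.2 in WT TAC libraries, and at 8.05, 26.7 and 22.7 in KO sham and 5.86, 6.88 and 6.10 in KO TAC libraries. WT TAC replicate 1 sat among the KO TAC values, and the difference after TAC was -1.16 ± 0.47 with an adjusted p of 0.0889, which became -1.51 ± 0.26 with an adjusted p of 0.00046 without the 2 libraries. Atg9a shares 32.6% of its exon bases with other annotated genes, of which Gm29253 on the same strand is the largest. The lipid transfer proteins Atg2a and Atg2b differed by 0.17 ± 0.17 and -0.21 ± 0.21 with 12 libraries. Atg2a was higher in KO without the 2 libraries (0.39 ± 0.11, adjusted p = 0.0105), and Atg2b did not pass (-0.33 ± 0.15, adjusted p = 0.0695).

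Cargo receptors bind ubiquitin-marked cargo with 1 end and ATG8 proteins with the other, and 0 of the 3 measured passed with 12 libraries. Sqstm1, which encodes p62, was at 227, 279 and 508 CPM in WT TAC and 207, 208 and 174 in KO TAC libraries, beside 266, 281 and 270.3 in WT sham and 175, 263 and 255 in KO sham libraries. WT TAC replicate 5 was far above the other 11 libraries, the WT TAC and KO TAC libraries did not overlap, and the difference was -0.78 ± 0.28 with an edgeR adjusted p of 0.0606. Without WT TAC replicate 5 it was -0.37. Nbr1 was at 85.2, 98.3 and 109.6 CPM in WT TAC and 77.9, 75.7 and 70.5 in KO TAC libraries (-0.39 ± 0.17, adjusted p = 0.117). Optn, which encodes optineurin, was at 57.4, 70.3 and 92.9 CPM in WT TAC and 49.6, 56.8 and 50.2 in KO TAC libraries (-0.49 ± 0.24, adjusted p = 0.149). In both genes the KO TAC libraries lay below the WT TAC libraries. Without the 2 libraries all 3 receptors were lower in KO, with log2 fold changes of -0.999, -0.47 and -0.64. Sqstm1 shares 17.3% of its exon bases with Mrnip on the opposite strand.

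Among the mitophagy genes, Pink1 and Bnip3 were lower in KO after TAC, while Bnip3l and Fundc1 did not pass. Pink1 encodes the kinase that builds up on damaged mitochondria and recruits the ubiquitin ligase parkin. Its levels were 456, 449 and 467 CPM in WT sham, 304, 416 and 411 in WT TAC, 155, 331 and 299 in KO sham and 211, 193 and 187 in KO TAC libraries. The 3 KO TAC libraries and KO sham replicates 1 and 3 lay below all 6 WT libraries, and the difference after TAC was -0.93 ± 0.25 (1.91-fold lower, edgeR adjusted p = 0.0313). Bnip3 encodes a receptor in the outer mitochondrial membrane that is known to be induced by low oxygen. Its levels were 87.5, 76 and 80.3 CPM in WT sham, 49.7, 176 and 131 in WT TAC, 25.4, 79 and 86.6 in KO sham and 48.7, 46.7 and 30.1 in KO TAC libraries. WT TAC replicates 3 and 5 were the highest of the 12 and WT TAC replicate 1 stood just above the highest KO TAC library, so that the groups did not overlap by a margin of about 1 CPM. The difference of -1.50 ± 0.47 (2.84-fold lower, adjusted p = 0.044) was the largest in size of the 33, with the SE among the widest, and it was -1.87 ± 0.18 without the 2 libraries (adjusted p = 4.32e-06). Bnip3 shares 22.3% of its exon bases with Gm45507 on the opposite strand.

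The other receptors of the outer mitochondrial membrane stood closer together. Bnip3l, the sister gene of Bnip3 that encodes NIX, was at 61, 60.5 and 58.6 CPM in WT sham, 51, 56.4 and 67.6 in WT TAC, 51.9, 57.2 and 53 in KO sham and 58.5, 56.5 and 49.8 in KO TAC libraries, and its groups overlapped after TAC (-0.09 ± 0.14, edgeR adjusted p = 0.645). Fundc1 was at 13.7, 23.8 and 22.2 CPM in WT TAC and 15, 12.8 and 14.2 in KO TAC libraries, with WT TAC replicate 1 among the KO TAC values (-0.50 ± 0.28, adjusted p = 0.2). Without the 2 libraries the difference in Fundc1 was -0.70 ± 0.13 (adjusted p = 0.000345) and that in Bnip3l was -0.17 ± 0.11 (adjusted p = 0.218).

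At the lysosomal end of the path, Lamp1 was lower in KO after TAC. Lamp1 and Lamp2 encode the main glycoproteins of the lysosomal membrane, and loss of LAMP2 in people causes Danon disease, a cardiomyopathy with stalled autophagosomes. Lamp1 was at 343, 331 and 299 CPM in WT sham, 211, 326 and 414 in WT TAC, 159.8, 340.1 and 333 in KO sham and 168, 146 and 155 in KO TAC libraries. The 3 KO TAC libraries and KO sham replicate 1 lay between 146 and 168 CPM and the other 8 between 211 and 414, with WT TAC replicate 1 the lowest of the 8, and the difference after TAC was -1.02 ± 0.30 (2.02-fold lower, edgeR adjusted p = 0.0369). Lamp2 was at 98.2, 157 and 162 CPM in WT TAC and 101, 102 and 94.9 in KO TAC libraries, where WT TAC replicate 1 sat among the KO TAC values (-0.48 ± 0.22, adjusted p = 0.12). It was lower without the 2 libraries (-0.68 ± 0.12, adjusted p = 0.000296). Tfeb, the transcription factor of lysosomal and autophagy genes, was at 18.5, 18.4 and 16.8 CPM in WT TAC and 18.5, 19.7 and 20.0 in KO TAC libraries, which overlap, and it passed in neither fit (0.11 ± 0.12 with 12 libraries, adjusted p = 0.497).

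Across the 33 genes, the KO TAC libraries lay wholly below the WT TAC libraries for 14 (42.4%), beside 24.3% of all tested genes, and wholly above them for 0, beside 22.7%. For all 10 lower genes the 3 KO TAC libraries lay below the 3 WT sham, the 3 WT TAC and the other 2 KO sham libraries, and KO sham replicate 1 lay below those 8 as well. These 10 were called on the same KO TAC and WT TAC libraries, so their order is not separate support. Of all 33 genes, 14 had the KO TAC libraries below those 8, and 21 had KO sham replicate 1 below them. The matching shares of all tested genes were not counted, so these counts cannot be read as particular to the 33 genes. The 33 genes held 0.163% to 0.180% of all counts in the KO TAC libraries and 0.155% in the first KO sham library, while the other 8 held 0.273% to 0.346%. These shares are of raw counts, in which the mitochondrial genome took 44.0% to 51.3% in the KO TAC group, 51.0% in KO sham replicate 1 and 24.8% to 36.9% elsewhere. The scaled levels moved in the same direction. The median deviation of the 33 genes from their means over 12 libraries was -0.35 to -0.31 (log2 CPM) in KO TAC libraries, -0.42 in KO sham replicate 1, -0.14 in WT TAC replicate 1 and 0.11 to 0.30 in the other 7.

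The sums of several marker lists of cell types moved with the same libraries. The summed CPM of 8 ventricular cardiomyocyte markers, none at 0 in any library, was 34309 to 37362 in KO TAC libraries, 26959 in KO sham replicate 1 and 46395 to 57334 in the other 8. After TAC 4 of the 8, Myl3, Actc1, Ryr2 and Pln, were called lower in KO (log2 fold changes -1.84 to -0.75). Myh6 (-0.55), Tnnt2 (-0.51), Tnni3 (-0.01) and Myl2 (-0.06) were not called. Over all tested genes 11.7% were called lower and 8.63% higher in this comparison. For 6 smooth muscle and pericyte markers the sum was 621 to 696 CPM in the KO TAC libraries and KO sham replicate 1 and 837 to 1182 CPM in the other 8. The most abundant of them, Rgs5 (370 to 782 CPM over the libraries), was the 1 marker called lower after TAC (-0.80). Cspg4 (-0.30) and Acta2 (-0.05) were also negative, but Myh11 (0.53), Tagln (0.91) and Pdgfrb (0.17) were positive, so the markers did not fall together. For 6 endothelial markers it was 1221 to 1371 CPM in those 4 libraries and 801 to 1180 CPM in the other 8, with 0 called. The sum of 5 atrial markers was 643 to 2354 CPM in KO TAC and 251 to 545 CPM in WT TAC libraries, with 4 of 5 called higher and Bmp10 at 0 in 4 libraries. It reached 2987 CPM in KO sham replicate 1 and ran from 81.3 to 1731 CPM in WT sham libraries. The sum of 5 adipocyte markers was 18.3 to 23.9 CPM in KO TAC and 0.147 to 1.08 CPM in WT TAC libraries, with 4 of the 4 tested called higher, and Adipoq, Plin1 and Lep were each at 0 in at least 1 library. For 5 mesothelial markers the sum was 27.0 to 37.7 CPM in KO TAC and 4.57 to 7.62 CPM in WT TAC libraries, with 1 of 5 called higher and 4 at 0 in 1 library each. Of the skeletal muscle and thymus list, Ckm, which heart muscle also expresses, was called lower (-2.17), and Tnnt3 was not called. Rag1 and Dntt, too low to be tested, were at 1.64 and 1.64 CPM in KO sham replicate 1, at 0.852 and 0.721 CPM in KO TAC replicate 5, and no higher than 0.0782 CPM elsewhere. The summed fibroblast and macrophage markers of the KO TAC and WT TAC libraries overlapped, and the sum of 6 T and B cell markers was 3.52 to 6.10 CPM in KO TAC and 1.45 to 3.10 CPM in WT TAC libraries. The part of these markers and of the mitochondrial share in the lower levels of the 33 genes was not tested. The fit without the mitochondrial genome dropped those genes before scaling and did not adjust for their share. In tissue RNA, fewer cells of a type and less RNA per cell cannot be told apart.

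**Figure D4:**
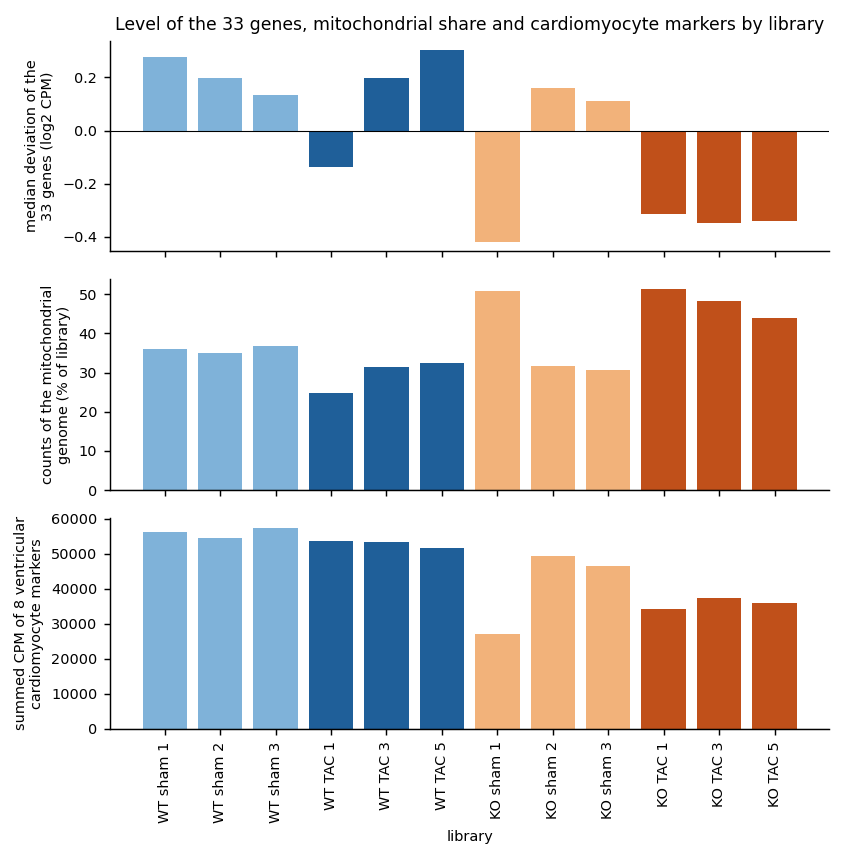
Bars give 3 values for each of the 12 libraries, from top to bottom the median deviation of the 33 genes from their means over 12 libraries (log2 CPM), the share of counts from the mitochondrial genome in percent, and the summed CPM of 8 ventricular cardiomyocyte markers. The 3 KO TAC libraries and KO sham 1 have the lowest values in the top and bottom panels and the highest in the middle one, and WT TAC 1 is the only other library below 0 in the top panel.

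Per kilobase of annotated exon, a unit that allows a rough comparison between genes, the order of the most abundant genes was led by the LC3 gene Map1lc3a, Pink1 and Lamp1. In WT sham hearts Map1lc3a was at 217 ± 22.9 CPM per kilobase (mean ± SD, n = 3), Pink1 at 171 ± 3.39 and Lamp1 at 121 ± 8.58. Gabarap followed at 88.4 ± 1.56 and Sqstm1 at 81.2 ± 2.39 CPM per kilobase. Bnip3 at 35.9 ± 2.55 and Gabarapl1 at 34.5 ± 2.44 did not differ beyond their SDs, nor did Gabarapl2 at 19.9 ± 1.40 and Map1lc3b at 19.0 ± 0.635. In KO TAC hearts Map1lc3a stood at 166 ± 13.8 CPM per kilobase and Pink1 at 73.8 ± 4.68. Lamp1 at 58.5 ± 4.14, Sqstm1 at 58.4 ± 5.83 and Gabarap at 54.4 ± 4.77 lay within their SDs of each other there. Exon lengths are of the GENCODE M21 annotation (GRCm38), which may not be the one the authors counted with. They merge all annotated exons of a gene, 1.181 kilobases for Map1lc3a and 7.517 for Map1lc3b, and not the length of the transcripts expressed. The order therefore depends on the annotation.

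Between the genotypes after sham surgery, 0 of the 33 genes passed with 12 libraries, beside 0.00633% of all tested genes (1 gene). DESeq2 also called 0 of the 33, beside 1.36% of all genes, and 2 of the 33 were below an unadjusted p of 0.05 in edgeR, beside 13.5% of all tested genes. The median log2 fold change was -0.26, beside 0.01 over all tested genes, with 27 of 33 values negative. The KO sham libraries lay wholly below the WT sham libraries for 10 of the 33 genes (30.3%), beside 10.4% of all tested genes, and wholly above them for 1, Becn1, beside 12.2%. Pink1 had the largest difference in size, -0.81 ± 0.25 with an edgeR adjusted p of 0.277, and its KO sham values of 155, 331 and 299 CPM all lay below the WT sham values given above. Optn differed by -0.54 ± 0.24, with an adjusted p of 0.366. Without the 2 outlying libraries Pink1 was the 1 gene of the 33 that was lower in KO (-0.52 ± 0.11, adjusted p = 0.0248), where 1.84% of 16007 genes passed, and the median of the 33 was -0.07.

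TAC against sham in the KO hearts gave 0 calls among the 33 genes and 0 among all 15804 (0.00%) with 12 libraries. DESeq2 called Atg9a and Atg10 lower, beside 8.02% of all genes, and in edgeR 11 of the 33 were below an unadjusted p of 0.05, beside 30.9% of all tested genes. Of the 11, 9 were lower, beside 19.5% of all tested genes. The median was -0.30, beside -0.02 over all tested genes. For Atg9a, Atg10, Nbr1 and Lamp2 the KO TAC libraries lay wholly below the 3 KO sham libraries (12.1% of the 33, beside 10.8% of all genes), and for Atg13 they lay above (beside 11.6%). Atg9a stood at 8.05, 26.7 and 22.7 CPM after sham and 5.86, 6.88 and 6.10 after TAC (-1.62 ± 0.47, edgeR adjusted p = 0.103). Atg13, the adaptor of the initiation kinase, stood at 38, 38.7 and 40.8 CPM after sham and 51.6, 59 and 42.9 after TAC (0.38 ± 0.16, adjusted p = 0.136).

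The comparison within KO hearts turned on KO sham replicate 1. Without the 2 outlying libraries, 18 of the 33 genes fell after TAC and 3 rose, where 28.7% of 16007 genes fell and 26.8% rose. Lamp1 changed by -1.10 ± 0.12 on the log2 scale (edgeR adjusted p = 6.07e-06), Atg9a by -1.97 ± 0.25 and Wipi1 by -1.04 ± 0.16. Of the ATG8 genes Map1lc3b (-0.79 ± 0.11), Gabarap (-0.49 ± 0.12) and Gabarapl2 (-0.75 ± 0.12) fell, while Map1lc3a and Gabarapl1 did not pass (adjusted p = 0.0916 and 0.178). The genes that rose were Atg101 (0.81 ± 0.14), Atg7 (0.37 ± 0.13) and Atg13 (0.36 ± 0.13). Omitting KO sham replicate 1 alone gave 17 lower and 2 higher, beside 25.2% and 22.4% of all genes.

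In WT hearts 0 of the 33 genes passed between TAC and sham with 12 libraries, beside 0.0316% of all tested genes (5 genes). Of the 33, 1 was below an unadjusted p of 0.05, beside 16.2% of all tested genes, DESeq2 called 0 (2.93% of all genes), and the median was -0.03 beside 0.01 over all tested genes. That 1 gene was Atg101, a partner of Atg13 in the initiation complex, at 10.2, 9.12 and 11.2 CPM after sham and 19.4, 14.4 and 15.9 after TAC, with no overlap (0.71 ± 0.21, edgeR adjusted p = 0.19). The TAC libraries lay wholly above the sham libraries also for Map1lc3a and Wipi2 (3 of 33 genes, beside 13.4% of all), and wholly below them for Pink1 and Fundc1 (2 of 33, beside 13.7%). Without the 2 libraries Atg101 (0.59 ± 0.13, adjusted p = 0.0232), Gabarapl1 (0.73 ± 0.19, adjusted p = 0.0496) and Bnip3 (0.93 ± 0.18, adjusted p = 0.0143) were higher after TAC, where 3.39% of 16007 genes were called higher and 2.79% lower. Omitting KO sham replicate 1 alone left Atg101 as the 1 call, where 3.40% of all genes were called higher. In KO hearts Atg101 was at 15.6, 8.55 and 9.46 CPM after sham and 14.9, 16.6 and 15.9 CPM after TAC, and KO sham replicate 1 was within the TAC range.

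Whether the response to TAC differed between the genotypes was tested as an interaction, the change in KO minus the change in WT. It gave 0 calls among the 33 and 0 among all genes (0.00%) with 12 libraries, with 0 of the 33 below an unadjusted p of 0.05 (9.19% of all genes), and DESeq2 called 0 of the 33, beside 0.430% of all genes. The median was -0.13 beside -0.07 over all tested genes. On omitting KO sham replicate 1 the interaction passed as negative for Map1lc3b, Gabarapl2 and Lamp1, beside 7.45% of all genes. With both outlying libraries left out it passed as negative for 17 of the 33, where 20.2% of 16007 genes passed as negative and 15.9% as positive. In that fit the values were -1.91 ± 0.26 for Bnip3 (edgeR adjusted p = 0.000164), -1.31 ± 0.17 for Lamp1 (adjusted p = 9.76e-05) and -0.98 ± 0.15 for Map1lc3b (adjusted p = 0.000259), and all 5 ATG8 genes passed. In the same fit Bnip3 rose after TAC in WT and fell after TAC in KO hearts. The comparisons share libraries, so these values are not independent of the differences given above.

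Related genes outside the 33 were taken from 5 lists, which were chosen with earlier results of these data known. Of 20 listed further genes of the core machinery 19 were found and tested, and after TAC 1 was lower and 1 higher in KO, with a median of -0.13. Over all tested genes 11.7% were called lower and 8.63% higher in this comparison, the shares to set beside the counts of each list. The lower was Tmem41b, a lipid scramblase of the endoplasmic reticulum (-0.83 ± 0.26, edgeR adjusted p = 0.0441), and the higher Atg16l2, a relative of Atg16l1 (1.16 ± 0.27, adjusted p = 0.0229). Atg9b, the sister of Atg9a, was at 1.13 ± 0.38 (adjusted p = 0.0524) and the protease Atg4d at -0.82 ± 0.28 (adjusted p = 0.0573), so neither passed.

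In the list of other mitophagy receptors and mitochondrial dynamics genes 7 of 20 were lower and 1 higher, with a median of -0.60, beside 11.7% lower and 8.63% higher of all tested genes. Examples were Calcoco1, a selective autophagy receptor (-1.34 ± 0.26, edgeR adjusted p = 0.0165), Pgam5, a mitochondrial phosphatase (-1.07 ± 0.28, adjusted p = 0.0283), Phb2, an inner-membrane receptor for LC3 (-0.84 ± 0.22, adjusted p = 0.0292), and Mff, a fission factor (-0.86 ± 0.25, adjusted p = 0.0363). Of 16 genes of autophagosome and lysosome fusion 5 were lower and 0 higher, beside the same shares, with a median of -0.05. They included the SNARE genes Ykt6 (-0.92 ± 0.23, adjusted p = 0.0256) and Snap29 (-0.92 ± 0.27, adjusted p = 0.0376), the lysosome-positioning GTPase Arl8b (-0.87 ± 0.27, adjusted p = 0.0431) and the Rab7 effector Rilp (-0.51 ± 0.16, adjusted p = 0.0442).

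Among 28 lysosomal genes 9 were lower and 0 higher, with a median of -0.28, beside 11.7% lower and 8.63% higher of all tested genes. The proteases Ctsd (-1.01 ± 0.19, edgeR adjusted p = 0.0165) and Ctsb (-0.93 ± 0.25, adjusted p = 0.0295), the calcium channel gene Mcoln1 (-0.70 ± 0.16, adjusted p = 0.0216) and the proton pump accessory gene Atp6ap1 (-0.69 ± 0.20, adjusted p = 0.0339) were among the 9. Of 30 upstream regulators 8 were lower and 2 higher, beside the same shares, with a median of -0.19. Trp53inp2, which binds ATG8 proteins and promotes autophagosome formation, had the value -1.73 ± 0.40 (adjusted p = 0.0231). Akt1s1, an inhibitory subunit of the mTORC1 kinase, was at -0.70 ± 0.15 (adjusted p = 0.0198), Lamtor1, which anchors that kinase to lysosomes, at -0.70 ± 0.16 (adjusted p = 0.0211), and Flcn, a GTPase-activating protein of the same pathway, was higher at 0.80 ± 0.17 (adjusted p = 0.0198). Without the 2 outlying libraries, 8 of 19 core machinery genes were lower and 6 higher, 13 and 2 of the 20 mitophagy and dynamics genes, 6 and 4 of the 16 fusion genes, 13 and 3 of the 28 lysosomal genes and 15 and 4 of the 30 regulators. In that fit 27.7% of all tested genes were called lower and 26.1% higher.

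In these lists 0 genes passed in WT hearts after TAC with 12 libraries, and 0, 0, 1, 5 and 2 genes of the lists in the order above were below an unadjusted p of 0.05 in edgeR, beside 16.2% of all tested genes. The smallest p there belonged to Depp1, a FoxO target that modulates autophagy (2.00 ± 0.35, adjusted p = 0.0634), and next came the lysosomal tetraspanin gene Cd63 (0.58 ± 0.15, adjusted p = 0.154). Both were called higher without the 2 libraries, with adjusted p-values of 0.0455 and 0.00467.

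**Figure D5:**
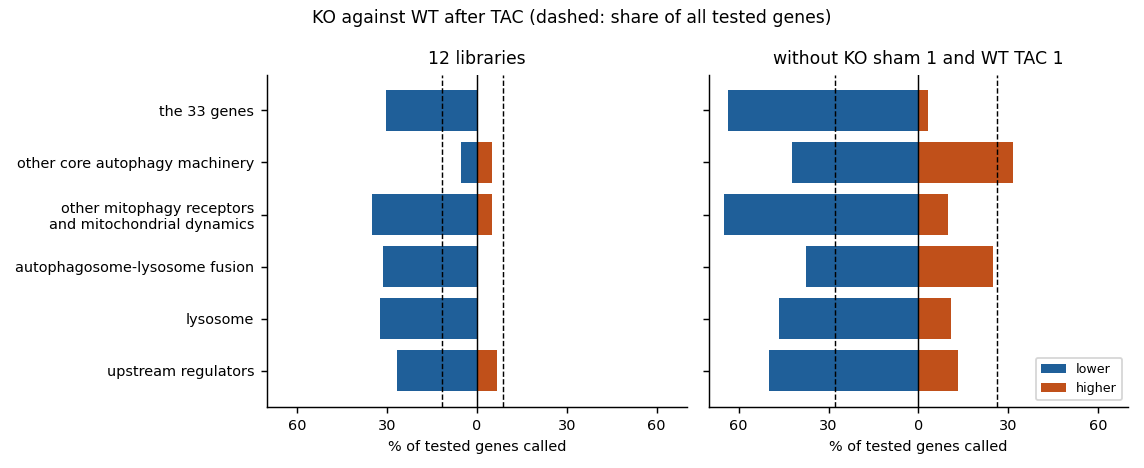
Bars give the percentage of tested genes called lower (blue, to the left) and higher (orange, to the right) in KO than in WT TAC hearts for the 33 genes and 5 related lists, on a horizontal axis in percent. Dashed lines mark the shares over all tested genes, 11.7% lower and 8.63% higher with 12 libraries on the left and 27.7% lower and 26.1% higher without KO sham 1 and WT TAC 1 on the right.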

How the data were processed

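Poly(A) RNA of 12 mouse hearts was read as 150 bp pairs, per the labels' protocols, with TAC made by tying the aorta over a 27-gauge needle. Reads were aligned with HISAT2, per the submitters' processing notes. Which program, build, annotation and strand setting produced the counts, and how reads shared with pseudogene copies were handled, is not given in the sources used. The authors deposited unnormalized whole-number counts for each gene, in columns named by sample title. Replicate numbers are those of the titles, 1 to 3 after sham and 1, 3 and 5 after TAC. Symbols were matched for 52081 of 55357 identifiers, and the 3276 others stayed in the tests.

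The test was edgeR's robust quasi-likelihood F-test (version 4.0.16, R 4.3.3) on all 12 libraries, with TMM factors, filterByExpr by group, 1 coefficient for each group and 8 residual degrees of freedom. P-values were adjusted by Benjamini-Hochberg over 15804 tested genes and called under 0.05. Log2 fold changes carry ± SE, and CPM values are TMM-scaled. The procedure was tested on simulated counts. The alternatives were DESeq2 1.42.0, its size factors in edgeR, removal of the mitochondrial genome, no low-count filter, a replicate block, a fit of only the compared groups, each library left out in turn, and the pair KO sham replicate 1 and WT TAC replicate 1 left out together. Promoter windows are RefSeq's (GRCm38.p6), and exon lengths and overlaps come from GENCODE M21 (GRCm38).

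All 33 genes are reported. From each related list, the rule takes up to 4 genes with the smallest p between genotypes after TAC and up to 2 between TAC and sham in WT, of which some are left out. The genes, the lists and the 2 libraries left out together were chosen with earlier results of these data known. Of 33 genes, 11 share exon bases with another annotated gene, 5 of them over 10% of their exon length.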

Additional observations from a re-analysis of the deposited data

How the results depend on the processing

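Every alternative kept the direction of the members' median in each genotype comparison, and 0 of 3102 alternative values of single genes reversed a call, while 72 lost one, 98 gained one and 135 changed sign with no call in either fit. Between genotypes after TAC, the count of 10 genes became 6 with the replicate block and 22 on leaving out the 2 outlying libraries (KO sham replicate 1 and WT TAC replicate 1), and ran from 0 to 18 with single libraries left out. Between TAC and sham in KO, the count of 0 became 2 with DESeq2, 1 with no low-count filter (Atg10) and 21 without the 2 libraries, and ran from 0 to 19 with single libraries left out. Between TAC and sham in WT it became 3 without the 2 libraries and ran from 0 to 1 with single libraries left out, and between genotypes after sham it became 1 without the 2 libraries. For the interaction, the count of 0 became 17 without the 2 libraries and ran from 0 to 3 with single libraries left out, and the median of -0.13 became -0.45 and ran from -0.33 to -0.051 with single libraries left out. The cause of these shifts was not tested.

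Over 14 same-numbered pairs of libraries the deviations from the group means correlated from -0.19 to 0.62, with 2 pairs over 0.1. The pair at 0.62 was WT TAC replicate 1 with KO sham replicate 1, the 2 outlying libraries. Differently numbered libraries also correlated, at 0.45 for WT TAC replicate 3 with KO sham replicate 2. Whether the replicate numbers of the titles pair the libraries cannot be decided from these values, with 3 libraries a group. With the replicate block the 10 of the 33 genes called between genotypes after TAC became 6, and no other count of calls among the 33 moved by over 1.5 times. The 11 genes under an unadjusted p of 0.05 in edgeR between TAC and sham in KO became 5 (4 of them lower). Over all genes, the 5 calls between TAC and sham in WT became 0, and the 1855 called lower between genotypes after TAC became 1226. With 3 libraries a group, a difference that did not pass is not shown to be absent.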
